A study of Mus musculus with 24 samples.

Results

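Camta1 encodes calmodulin-binding transcription activator 1, a large DNA-binding transcription factor that is expressed mainly in neurons and that binds calmodulin, the cell's main calcium sensor. The mouse gene (ENSMUSG00000014592) lies on the minus strand of chromosome 4 and is among the long genes of the genome, with a span of 944555 bp (chr4:150917322-151861876, GRCm38, the same assembly as mm10). The locus described here was the gene span plus 2 kb on each side, and its members were the CpG cytosines in that window with a deposited methylation value. There were 631 of them among the 694379 CpG cytosines of the table. The gene was chosen by its number of CpGs whose methylation differed with aging and, in the opposite direction, with enrichment in these same mice. Those 2 differences are therefore given below as a description with no test, and nothing is read from their counts.

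The values came from the dentate gyrus, the part of the hippocampal formation where new neurons form in the adult mouse, dissected from female C57BL/6JRj mice. Young STD mice were 3 months old and lived in standard cages, aged STD mice were 17 months old and lived in standard cages, and aged ENR mice were 17 months old and had moved into an enriched environment (ENR) for 3 months. Each of the 3 groups held 8 mice, with 1 library per mouse. Where 3 values stand in a row below, their order is young STD, aged STD, aged ENR. ENR mice shared enclosures of 10 animals and STD mice cages of 5 per the study's methods, so enclosure and housing cannot be told apart, and p-values measure the spread between mice of these groups. The tissue was a mixture of cells, and a different mixture of cell types cannot be told apart from a difference within 1 cell type. DNA methylation values do not show marker expression, so the dissection was not checked against marker genes. In mammals a dense cluster of CpGs at a start site is usually unmethylated, while most isolated CpGs inside genes are methylated, and promoter methylation goes with a silent promoter.

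Methylation was measured by reduced representation bisulfite sequencing (RRBS), which reads short fragments that begin at the restriction site CCGG. All 631 members lay at a CG of the reference and within 75 bases of a CCGG, as did 45670 of 45681 measured cytosines of chromosome 4. The deposited values covered 586 of the 13746 CpGs of the window (4.26%), 45 of them on both strands. How many others lay near a CCGG but had too few reads or mice was not counted. A value is the percentage of reads at 1 cytosine of 1 strand that were methylated, given where a mouse had at least 10 reads. The read numbers are not in the table, so the depth behind a single value is unknown beyond that minimum.

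The sequences that carry the description are shown first, from RefSeq GRCm38.p6, with the CG of every measured CpG in capitals. The first is the stretch of the 5′ promoter just upstream of all annotated start sites, on the strand of the gene, and the others are on the plus strand around the CpGs described mouse by mouse below.
5′ promoter, chr4:151861877-151862018, minus strand: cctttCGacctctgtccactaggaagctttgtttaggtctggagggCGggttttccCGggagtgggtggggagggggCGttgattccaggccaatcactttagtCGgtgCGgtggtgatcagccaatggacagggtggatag
intron 12, chr4:151086218-151086279: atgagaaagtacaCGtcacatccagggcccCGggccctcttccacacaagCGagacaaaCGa
intron 6, chr4:151259106-151259167: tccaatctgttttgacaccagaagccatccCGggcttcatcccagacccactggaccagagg
exon 15, chr4:151084770-151084831: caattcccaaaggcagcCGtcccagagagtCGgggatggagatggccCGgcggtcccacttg
intron 4, chr4:151486036-151486097: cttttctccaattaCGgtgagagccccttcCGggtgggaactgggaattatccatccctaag
Tnfrsf9, chr4:150934298-150934359: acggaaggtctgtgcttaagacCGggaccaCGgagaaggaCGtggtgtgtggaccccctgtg
intron 11, chr4:151129749-151129810: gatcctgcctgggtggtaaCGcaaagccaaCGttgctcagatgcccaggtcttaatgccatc
exon 9, chr4:151144122-151144194: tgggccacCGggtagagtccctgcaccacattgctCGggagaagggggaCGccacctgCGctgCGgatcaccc
Introns and exons are numbered along Camta1-202, a protein-coding transcript with 23 exons that spans chr4:151059525-151861876. Only 1 of the 13 annotated transcripts, Camta1-211, runs further, across a distal stretch of 142203 bp (chr4:150917322-151059524) where other genes lie, among them Tnfrsf9, Uts2, Per3 and Vamp3.

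The 5′ promoter of Camta1 was nearly free of methylation in every mouse. Over its 63 CpGs within 1 kb of the start sites, the CpG means averaged 1.33%, 0.977% and 1.17%, and 58 of the 63 stayed under 5% on average. Of the 982 single values there, 96.0% were 0. In single mice the mean of this promoter was between 0 and 3.34% in the young STD group, between 0 and 2.56% for aged STD mice and between 0 and 2.6% under ENR, so the groups overlapped. No CpG of the 5′ promoter differed by more than 25 points with age, with ENR or between aged ENR and young STD mice, against 4.47%, 3.92% and 3.87% of all CpGs within 1 kb of a start site. In the printed stretch, the 9 measured cytosines averaged 1.54%, 1.33% and 2.18%, and the highest group mean of a single cytosine was 15.2%.

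The internal start sites, from which shorter Camta1 transcripts begin, were low as well but not equally so. The 27 CpGs shared by the starts of Camta1-204 (chr4:151108576) and Camta1-205 (chr4:151108303) averaged 2.27%, 1.43% and 0.58%. The 2 CpGs near Camta1-208 (chr4:151139584) averaged 0 in all groups, and no CpG was measured near Camta1-207. The start of Camta1-203 (chr4:151129495) stood higher, with 56 CpGs averaging 7.38%, 8.85% and 5.84%, and with single CpGs between 0 and 53.7%. All promoter CpGs that averaged over 8.33% across the groups lay here.

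The body of the gene was methylated. Over 482 CpGs more than 1 kb from any Camta1 start site, group averages were 53.6%, 52.9% and 52.4%. In single mice the mean of the body was 52.0% ± 3.54, 50.5% ± 6.45 and 49.7% ± 4.31 (SD, n = 8 each). The mean of all promoter CpGs (148, the 5′ and internal start sites together) was 3.99% ± 1.63, 4.16% ± 3.55 and 3.07% ± 1.72. The promoters were lower than the body in 24 of 24 mice, by 47.0 points ± 4.81 (SD, n = 24), in a two-sided sign-flip permutation test with p = 1e-05, the smallest that 100000 flips can give. The smallest gap, 37.1 points, was in aged STD 5, the mouse with the lowest body mean (37.8%), and the largest, 55.9 points, was in young STD 8. Such means also depend on which CpGs a mouse covered. At the body CpGs it covered, aged STD 5 deviated by -0.51 points from the mean of the 3 group means.

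**Figure D1:**
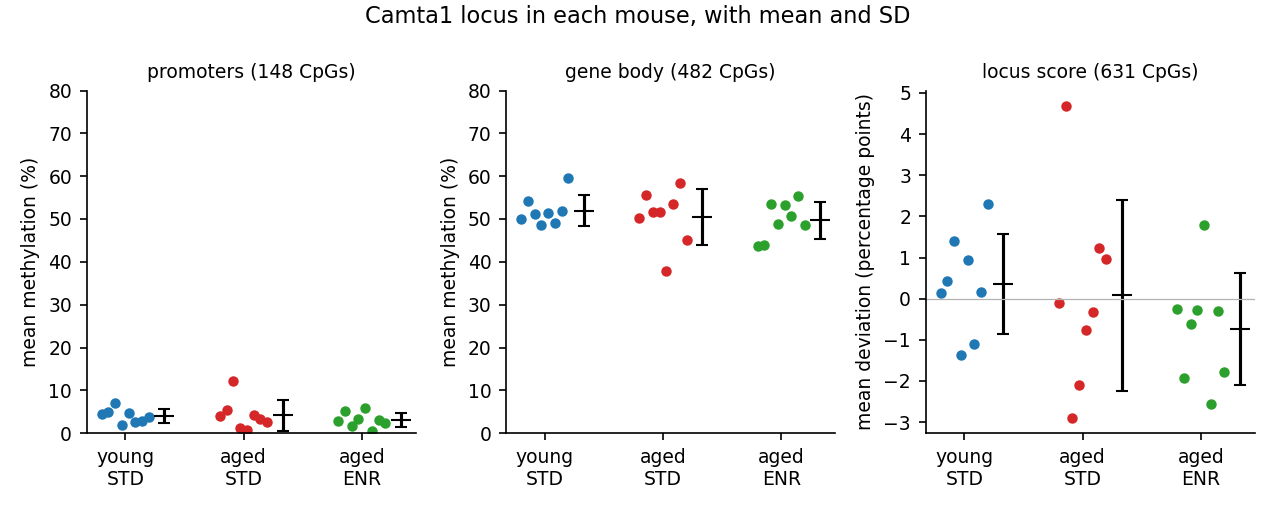
Mean methylation of the 148 promoter CpGs and the 482 gene body CpGs (percent), and the locus score over 631 CpGs (mean deviation in percentage points), with 1 point per mouse and group mean ± SD in black (n = 8 each). Promoters sit between 0.488% and 12.1% and bodies between 37.8% and 59.6%, with the 3 groups overlapping in every panel.

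The body of Camta1 was compared with introns elsewhere, and the result depended on which CpGs of the span were kept. The mean over all 139618 intronic CpGs more than 1 kb from any start site was 60.3% ± 3.91 over the 24 mice, against 50.7% ± 4.80 for the 482 CpGs of the Camta1 body. That difference was -9.60 points ± 3.35 and had the same sign in 24 of 24 mice (two-sided sign-flip permutation test, n = 24, p = 1e-05), and with medians over the same CpGs it was -38.7 points. The body as defined leaves out only Camta1 start sites, however, and holds 75 CpGs within 1 kb of a start site of another gene. Over the 407 CpGs more than 1 kb from the start site of any gene, the same limit as for the reference and a restriction added after seeing the data, the difference was -1.08 points ± 3.51, negative in 15 of 24 mice, and did not pass the test (sign-flip permutation p = 0.15). The 407 include exons and CpGs in other genes. A set of 304 CpGs, also added later, met the same start-site limit. It held only Camta1 introns outside other genes and outside the distal stretch. Over these 304 the difference was -4.40 points ± 3.34, negative in 21 of 24 mice (sign-flip permutation p = 1e-05). With medians over those CpGs it was -16.8 points.

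Introns 9 and 11 were mostly low. Intron 11, which holds the starts of Camta1-203, Camta1-204 and Camta1-205 described above, averaged 15.9%, 16.1% and 13.5% over 115 CpGs, promoter CpGs included, with 59 of them under 5% and 6 over 80%. Intron 9 averaged 10.3% in all 3 groups over 23 CpGs, with 16 under 5% and 2 over 80%. Introns 3 to 6, with 53 to 64 CpGs each, averaged between 56.4% and 73.0%. Coding and other exon CpGs more than 1 kb from a start averaged 63.1%, 62.8% and 66.0% over 37 CpGs. In the distal stretch, Vamp3, a vesicle SNARE gene whose promoter lies in the window, was nearly unmethylated over 34 CpGs (1.95%, 0 and 0.128%). Per3, a circadian clock gene, averaged 58.5%, 58.5% and 60.6% over 50 CpGs, and Tnfrsf9, a costimulatory receptor of T cells, averaged 71.3%, 68.5% and 67.3% over 18. The antisense gene 4930589P08Rik held no measured CpG.

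**Figure D2:**
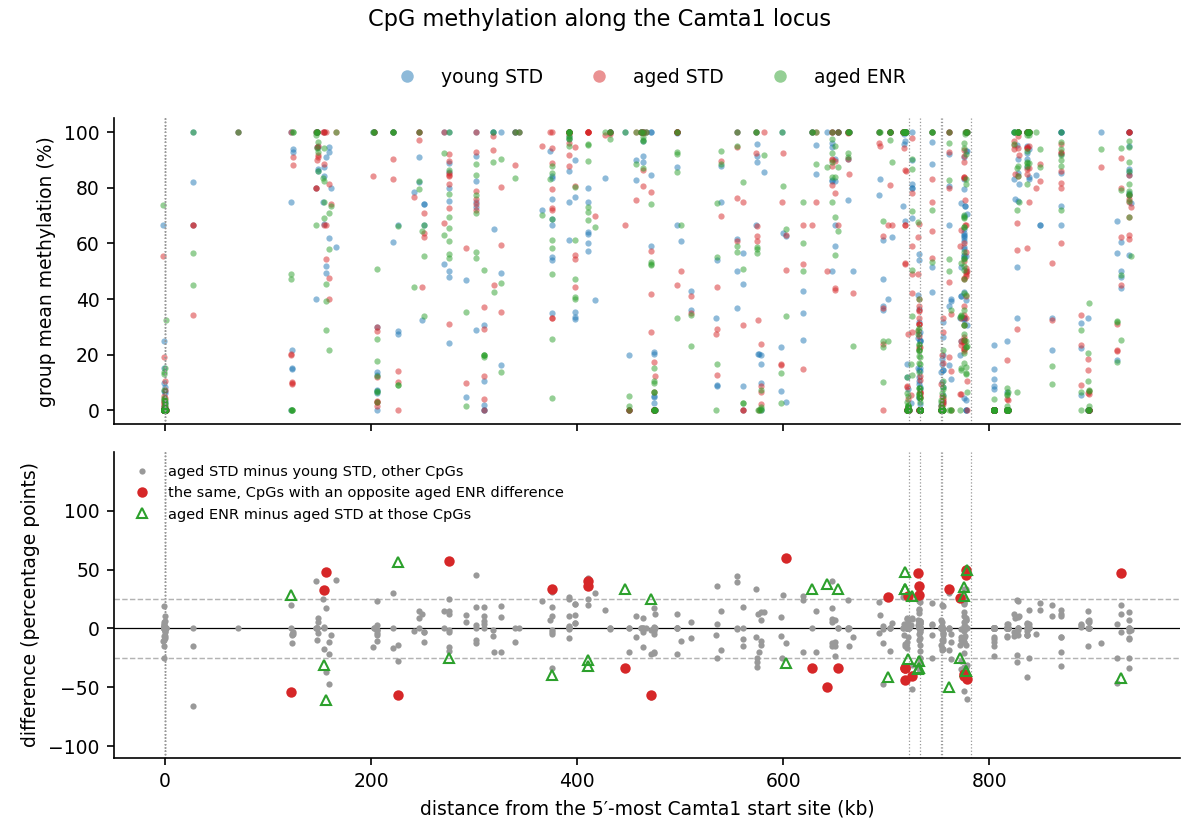
Upper panel, group mean methylation (percent) of the 631 CpGs against distance from the 5′-most start site (kb, dotted lines mark start sites). Lower panel, differences in percentage points, where the red points and green triangles are the 31 CpGs at which aged STD minus young STD and aged ENR minus aged STD were opposite and over 25 points. The start sites show a floor near 0%, and the 31 CpGs are spread over the gene with 28 of them between the start of the gene and the end of Camta1-202, outside promoters.

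Local CpG density took no part in choosing the locus, and the densest stretches were low. The number of CG dinucleotides within 100 bases, the CpG itself included, had a median of 19 at the 5′ promoter, 17 at the internal promoters and 6 in the gene body. Within the body, the 99 CpGs under 5% had a median of 12 CG in reach and the 183 CpGs over 80% a median of 5. Body CpGs with 1 to 4 CG in reach averaged 62.5%, those with 5 to 9 averaged 60.0% and those with 10 or more averaged 21.5%. Of the 98 body CpGs with 10 or more, 55 lay within 1 kb of a start site of another gene, such as Per3 and Vamp3, and averaged 0.921%, while the other 43 averaged 47.7%. Over 1 kb from any start site, CpGs with 1 to 4 and 5 to 9 CG in reach averaged 62.7% and 63.5%. Above 13 CG in reach, a limit set after seeing the plot, none of 144 promoter and body CpGs exceeded 17.0%. All 144 lay within 1 kb of a start site of Camta1 or another gene. Of the 486 with 13 or fewer, 340 exceeded 20%. CpGs in 1 stretch share reads, so these counts describe the locus and carry no test.

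**Figure D3:**
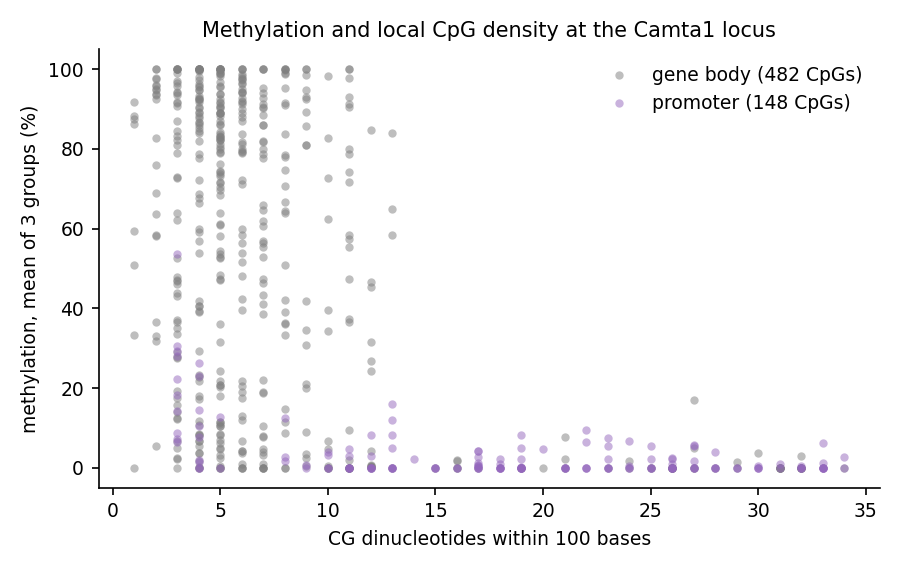
Methylation of each CpG (percent, mean of the 3 groups) against the number of CG dinucleotides within 100 bases, for 148 promoter and 482 gene body CpGs. Levels span 0 to 100% where CpGs are sparse and stay at or below 17.0% above 13 CG.

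Aging and ENR differences were next described for the members. The aged STD mean differed from the young STD mean by more than 25 points at 88 of the 631 CpGs (43 higher, 45 lower), which is 13.9% of them. The share was 9.16% over all CpGs (4.15% higher, 5.01% lower) and 15.1% over intronic CpGs away from start sites. The aged ENR mean differed from the aged STD mean by that much at 69 (29 higher, 40 lower), 10.9% against 8.33% over all CpGs (3.82% higher, 4.51% lower) and 14.1% over intronic ones. Both differences passed 25 points in opposite directions at 31 CpGs, called counteracted here, 4.91% against 3.49% over all CpGs and 5.69% over intronic ones. The locus includes 148 promoter CpGs, which the intronic reference leaves out. Over the 304 CpGs in Camta1 introns outside other genes, the aging, ENR and counteracted shares were 19.7%, 15.5% and 6.91%. These shares follow from the choice of the gene. At 14 of the 31 methylation was lower in aged STD mice than in both other groups, and at 17 it was higher, against 1.83% and 1.66% of all CpGs. Aged STD 5, whose mean over intronic CpGs of the table was 44.7% against 59.8 to 65.3% in the other aged STD mice, had no value at 22 of the 31. That intronic mean also depends on which CpGs a mouse covered. Over all CpGs it covered, aged STD 5 deviated by -2.43 points from the mean of the 3 group means, and by -0.76 points at the locus. At 2 further CpGs both differences passed in the same direction.

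The 31 counteracted CpGs were scattered along the gene. Same-strand CpGs no more than 75 bases apart, which a single read can cover, formed 222 stretches, and the 31 fell in 28 of them. Of the 31, 24 lay in introns and 6 in exons of Camta1-202. Among the 31, 2 were within 1 kb of an internal start and 2 were in another gene. They had 51 distinct neighbours in their stretches that were not counteracted. At all 31 the values of aged STD and young STD mice overlapped. At 19 of them at least 1 group was represented by 3 mice, the fewest allowed, and at 8 of these 2 or all 3 groups were. The remaining CpGs had more, and 5 had at least 5 mice in every group. Among locus CpGs with 9 to 12 mice 15 of 122 were counteracted (12.3%, against 5.90% over all CpGs with as many mice), with 13 to 16 mice 10 of 307 (3.26%, against 3.5%) and with 17 to 24 mice 6 of 202 (2.97%, against 1.61%). The values nearest to the limit were 25.03 and 25.05 points inside it, at chr4:151586215 and chr4:151389937, and 25 points outside it, at chr4:151117325 and chr4:151262669.

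The 6 counteracted CpGs with values in the most mice, taking only 1 within any 100 bp, are described mouse by mouse. In intron 12, at chr4:151086248 on the plus strand, young STD mice had 57.8, 63.6, 100, 100, 100, 0 and 67.7%, aged STD mice 19.4, 24.1, 62.5, 45.5, 0, 64.0 and 0%, and aged ENR mice 86.2, 100, 20.2, 22.4 and 100%. Group means were 69.9%, 30.8% and 65.8%, with SDs of 36.0, 27.1 and 41.0, and the 3 groups overlapped. The other cytosine of the same CpG, chr4:151086249 on the minus strand, averaged 61.0%, 83.6% and 30.7%, so the aging and ENR differences there were 22.6 and -52.9 points and ran the other way. At chr4:151086268, 20 bases along the same strand, the means were 79.8%, 26.5% and 36.2%, with an ENR difference of 9.69 points.

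In intron 6, at chr4:151259137 on the minus strand, young STD mice were at 0% in 5 of 6 and at 19.1% in the other. Aged STD mice ranged from 0 to 100% (100, 63.6, 100, 0, 36.0 and 79.3%), and aged ENR mice from 0 to 93.3% (93.3, 0, 0, 61.8, 11.4 and 37.0%). The means were 3.19%, 63.2% and 33.9%. Aged ENR mice spread over most of the aged STD range, and 2 of 6 were at 0%.

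In exon 15, which codes for protein, chr4:151084801 on the minus strand was at 0% in 5 of 6 young STD mice and at 22.2% in the last. Aged STD mice had 100, 0, 49.2, 0, 44.9 and 100%, and aged ENR mice had 0, 0, 69.2, 0, 0 and 9.80%. The means were 3.70%, 49.0% and 13.2%. Another CpG of the stretch, chr4:151084753, had means of 0, 49.7% and 13.3% and was counteracted too. Between and beside them chr4:151084763 had 0, 51.2% and 41.5%, chr4:151084788 had 50.2%, 57.1% and 22.9%, and chr4:151084818 had 0.249%, 33.4% and 22.7%. Every one of these 5 minus-strand CpGs was highest in aged STD mice, but they lie close enough to share reads and are not independent of each other. The plus strand of the CpG at chr4:151084753, chr4:151084752, had means of 39.7%, 48.3% and 15.6%.

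In intron 4, at chr4:151486067 on the minus strand, aged STD mice were between 70.4 and 100% (74.3, 100, 100, 70.4 and 100%). Young STD mice had 0, 100, 61.5, 56.8, 63.0, 59.6 and 45.2%, and aged ENR mice 0, 100, 62.9, 29.1, 54.4 and 48.4%. The means were 55.2%, 88.9% and 49.1%, and both other groups held 1 mouse at 0 and 1 at 100%. In the distal stretch, inside Tnfrsf9, chr4:150934328 on the plus strand was at 0 or 100% in most mice. Young STD mice had 100, 0, 100, 64.4, 0 and 0%, aged STD mice 100, 100, 63.3 and 100%, and aged ENR mice 100, 100, 0, 0, 0, 100 and 41.4%. The means were 44.1%, 90.8% and 48.8%. In intron 11, 284 bp from the start of Camta1-203, chr4:151129779 was at 0% in all 6 aged ENR mice, and young STD mice had 0, 3.45, 0, 0, 29.4, 0 and 0%. Only 3 aged STD mice had a value there, 100, 0 and 0%. Without aged STD 2 the aging difference turned from 28.6 to -4.69 points and the ENR difference from -33.3 to 0. With medians of the mice both differences were 0.

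**Figure D4:**
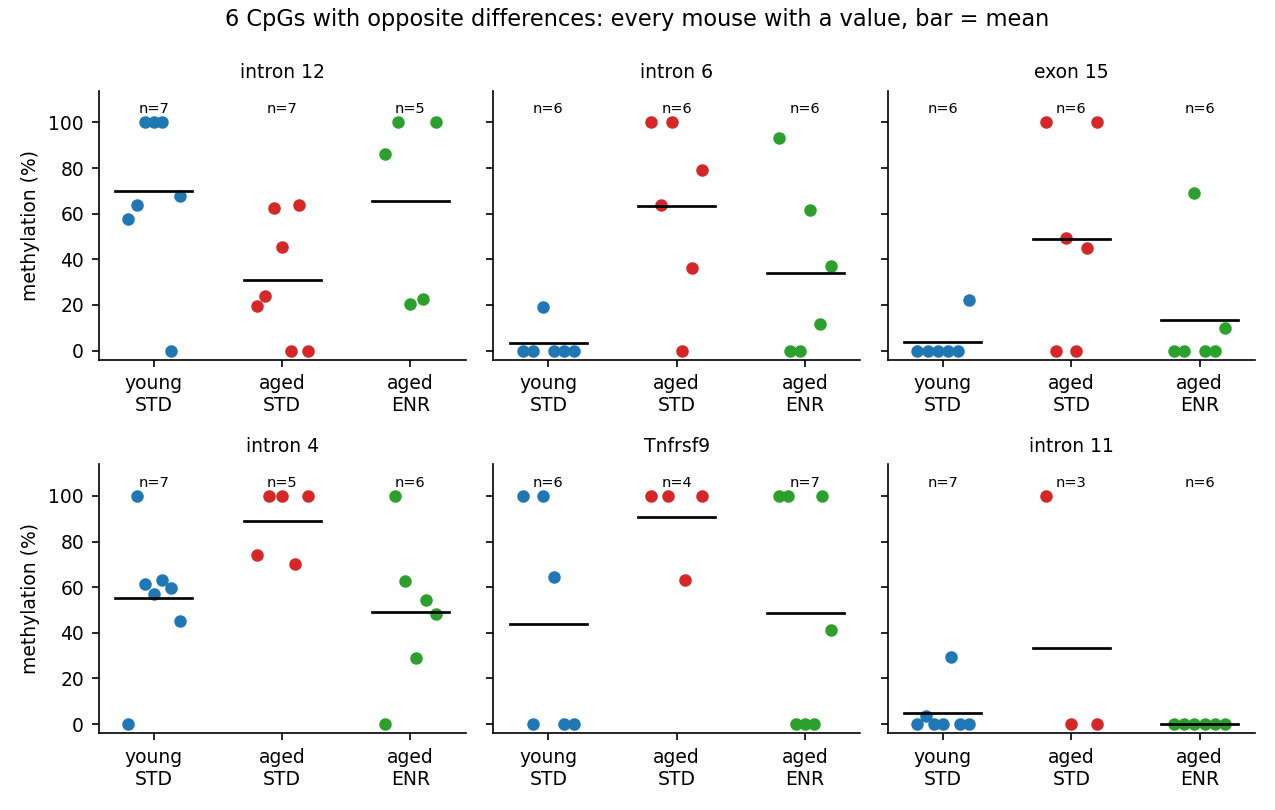
Methylation (percent) in every mouse with a value at the 6 counteracted CpGs with the most mice (1 within any 100 bp), titled by their place, with the group mean as a bar and n above each group. Aged STD points overlap young STD points in every panel, and many single values are 0 or 100%.

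The most counteracted CpGs in 1 exon, 3 of 10, were in exon 9, in the printed stretch. They were chr4:151144130, chr4:151144171 and chr4:151144185, chosen for mention after their values were seen. The same 9 mice gave all 3 values. Young STD and aged ENR mice were at 100% apart from 90.0% in young STD 6 at the first. Aged STD 3 was at 0% at all 3, aged STD 7 was at 100% at all 3, and aged STD 4 was at 57.5, 100 and 100%. At these 3 CpGs the differences thus came from 1 mouse at 2 of them and from 2 mice at the other. The same 9 mice also had values at the other CpGs of the printed stretch. At chr4:151144157 aged STD mice had 0, 59.3 and 100%, all aged ENR mice had 100%, and young STD 8 had 4.55%, so the ENR difference was 46.9 points and the aging difference -15.1. At chr4:151144180 aged STD 3 was at 100% and aged STD 4 at 59.2%, with all other mice at 100%.

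CpGs measured on both strands give a repeat within the same mouse. Over the 45 such CpGs the strands differed by 14.8 points on average within a mouse, against 9.51 points over the 58462 of the whole table, and 59.4% of the pairs of values were identical, against 72.6%. At the 12 of them with a mean level between 20 and 80% the strands differed by 34.5 points, against 35.9 points at the 6944 such CpGs of the table. An aging difference over 25 points was seen on at least 1 strand at 10 of the 45 and on both strands in the same direction at 0. In the whole table both strands passed at 388 of 6311 (6.15%). For the ENR difference this was 1 of 6 (290 of 5388, or 5.38%, in the table), and of 2 CpGs counteracted on 1 strand 0 were so on both (54 of 2359 in the table).

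The comparison of aged ENR with young STD mice was not used to choose the gene and was tested, although it uses the same mice and is the sum of the other differences, so that choosing CpGs where those cancel favours small values. The means differed by more than 25 points at 78 CpGs (33 higher and 45 lower in aged ENR mice), 12.4% against 8.43% over all CpGs (3.43% higher, 4.99% lower) and 14.4% over intronic ones. The locus includes promoter CpGs. Over the 304 CpGs in Camta1 introns outside other genes the share was 19.4%, with no test. In limma's moderated test over all 694379 CpGs, 0 of the 631 passed an adjusted p of 0.05 with a difference over 25 points, against 0.00504% over all CpGs, and the smallest adjusted p at the locus was 1. At an unadjusted p under 0.05 there were 13 of 631, against 2.18% of all CpGs. The smallest unadjusted p among the CpGs over 25 points, 0.00834 (limma adjusted p = 1), was at chr4:151086268 in intron 12, where young STD mice had 56.5, 60.9, 100, 100, 100, 75.9 and 65.1% and aged ENR mice 83.9, 0, 0, 60.0 and 37.1%. At chr4:151136922 in intron 10 young STD mice had 100, 76.0 and 63.6% and aged ENR mice 47.8, 0, 0, 29.0, 0 and 0%, without overlap (limma unadjusted p = 0.0209, adjusted p = 1). At chr4:151083967 in the coding part of exon 16 the means were 70.6% and 6.48% over 5 and 3 mice (limma unadjusted p = 0.0217, adjusted p = 1).

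A locus score was formed for each mouse as the average deviation of its values from the mean of the 3 group means at each CpG, in percentage points. It was 0.36 ± 1.21 in young STD mice (-1.36 to 2.29) and -0.74 ± 1.36 in aged ENR mice (-2.55 to 1.80; SD, n = 8 each), and 6 of 8 young STD mice but 1 of 8 aged ENR mice were above 0. The groups overlapped. The difference of -1.10 points did not pass an exact two-sided permutation test over all relabelings of the 16 mice (p = 0.111, adjusted p = 0.18 over 3 scores). The promoter score differed by -0.87 (exact permutation p = 0.295, adjusted p = 0.295) and the body score by -1.27 (exact permutation p = 0.12, adjusted p = 0.18). Leaving out single mice brought the locus score past the unadjusted limit in 4 of 24 cases: without young STD 4 it was -1.40 (exact permutation p = 0.0474), without aged STD 3 -1.45 (p = 0.0404), without aged STD 6 -1.59 (p = 0.0146) and without aged ENR 5 -1.47 (p = 0.0274, exact permutation each). Aged STD mice are not among the 16 mice compared. Leaving them out changed the CpGs kept, to 579 without aged STD 3 and 554 without aged STD 6. It also changed the mean from which each value deviates. Over all CpGs of the table the same score differed by -0.79 points. The locus score of aged STD mice, with no test, averaged 0.08 ± 2.32 and held both the highest and the lowest mouse of the study, aged STD 2 at 4.68 and aged STD 3 at -2.89.

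Only 2 CpGs were measured in all 24 mice, chr4:150926857 and chr4:150926874 on the plus strand, both in Tnfrsf9 in the distal stretch, and every mouse carried methylation there. The first lay between 70.7 and 96.8% in the young STD group, between 74.8 and 100% for aged STD mice and between 75.8 and 100% under ENR, with means of 84.6%, 84.5% and 89.2%. The second had means of 78.0%, 75.8% and 69.6% and ranged from 44.8 to 89.3% over all mice. The difference of aged ENR from young STD mice was 4.57 points ± 4.33 (limma SE, adjusted p = 1) at the first and -8.43 points ± 5.0 at the second (limma adjusted p = 1).

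The genes whose own score was most like that of Camta1 over the 24 mice were found by the correlation of the 2 scores. Of 646 other protein-coding genes with at least 100 CpGs, Adgrb1, an adhesion receptor of synapses, had the highest Pearson r (0.66, Spearman rho 0.59, and r = 0.68 without aged STD 5). It was followed by Pcdhgb7 (r = 0.61, rho = 0.54) and Pcdhga12 (r = 0.59, rho = 0.63), cell-adhesion protocadherins whose spans overlap each other and share CpGs. The median r over the 646 genes was 0.05 and the lowest -0.59. The points share libraries and depth, and the values are a description with no test.

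The calcium-calmodulin pathway, whose sensor CAMTA proteins bind, was counted over 22 listed genes with 897 CpGs. Aged ENR and young STD means differed by over 25 points at 80 of them (27 higher, 53 lower), 8.92% against 8.43% over all CpGs, and 27 were counteracted (3.01% against 3.49%). Calm2 and Calm3, which encode calmodulin, averaged 2.67% and 6.16% in young STD mice, with 0 and 2 CpGs that differed, and the paralog Camta2 averaged 4.72% over 48 CpGs, 3 of them lower in aged ENR mice. Among the 8 kinase genes of the list, the share was highest at Camk2g (4 of 21, 19.0%), Camkk1 (6 of 33, 18.2%) and Camkk2 (6 of 38, 15.8%), 3 of 30 at Camk2d, 9.43% and 8.42% at Camk2b (10 of 106) and Camk1d (8 of 95), and 0 at Camk1 and Camk1g. Camk1 and Camk1g held 7 and 4 CpGs. Of the calcineurin inhibitors, Rcan1 had 7 of 44, all lower in aged ENR mice, and Rcan2 had 10 of 55 (4 higher, 6 lower). Among calcineurin genes the share was 12.9% at Ppp3ca (7 higher, 4 lower), 1.92% at Ppp3r1 and 0% at Ppp3cb. It was 6.35% at Creb1, 5.66% at Mef2c, 5.0% at Nfatc3 and 6.67% at Nrgn, and 0% at Gap43 and Pcp4. None of these counts carries a test.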

How the data were processed

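The authors prepared RRBS libraries from the dentate gyrus, cut 2 further bases from reads with an adapter, aligned to mm10 and filtered with methylKit 1.5.2 for cytosines with at least 10 reads and coverage up to the 99.9 percentile, in at least 3 mice per group. The deposited values are percent methylation per cytosine and strand, with no read numbers, so read-based tests were not possible. Per the processing notes the tools were Trim Galore 0.4.0, Cutadapt 1.8.1 and Bismark 0.16.1, while the study's methods give Trim Galore 0.4.4 and Bismark 0.19.0. Each mouse contributed 251 to 566 values at the locus and 308751 to 608017 in the table.

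Genes, transcripts and start sites came from GENCODE M21 (GRCm38). Group means over at least 3 mice were compared at 25 points, as in the study's size limit. limma 3.58.1 (R 4.3.3) was fitted to percentages of all CpGs with group means and Benjamini-Hochberg adjustment. Its prior had 0.341 degrees of freedom, and 32% of CpGs had no variance within groups. Scores were tested by exact permutation of mice, and differences within mice by 100000 sign flips (Python 3.11.15, numpy 2.4.6). CpGs given mouse by mouse were the 6 counteracted ones with the most mice, no 2 within 100 bp, the 3 smallest limma p for aged ENR against young STD over 25 points, and those with values in all 24 mice. The most similar genes had at least 100 CpGs. Members and lists were chosen with earlier results of these data known. One listed gene is not reported here. Alternatives are under the processing heading of the closing section. The authors' chi-squared calls were not used.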

Additional observations from a re-analysis of the deposited data

Results flagged for a closer look

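In 12 of 63 groups of 4 to 8 mice checked, 1 mouse stood far from the others by its gap relative to the range, which chance does in about 1 of 20 groups when values are bell-shaped. Values at 0 or 100% make such gaps frequent at single CpGs. Plain means depend also on which CpGs a mouse covered. The mean of the promoters was 12.1% in aged STD 3, with the next mouse of its group at 5.37%. Aged STD 3 was at 0% in the 5′ promoter, and its promoter score was 4.21 points. The mean over Camta1 introns outside other genes was 42.0% in aged STD 5, with the next at 52.7%. The locus score of aged STD 5 was -0.76. In the distal stretch young STD 8 had 54.5% (next 39.0%) and aged ENR 7 had 50.9% (next 40.2%), and the body exceeded the promoters by 55.9 points in young STD 8 (next 49.2).

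At single CpGs, young STD 7 was at 0% at chr4:151086248 in intron 12 (next 57.8%), young STD 5 at 19.1% at chr4:151259137 in intron 6 (all others 0%), and young STD 6 at 29.4% at chr4:151129779 in intron 11 (next 3.45%). In exon 15, at chr4:151084801, young STD 8 was at 22.2% (all others 0%) and aged ENR 4 at 69.2% (next 9.80%). Aged STD 6 was at 63.3% at chr4:150934328 in Tnfrsf9 (all others 100%) and at 42.9% at chr4:151083967 in exon 16 (all others 0%).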

How the results depend on the processing

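With at least 5 mice per group, 154 of the 631 CpGs were left, and the counteracted, aging, ENR and aged ENR against young STD counts became 5, 16, 11 and 12. As shares of the CpGs tested these were 3.25%, 10.4%, 7.14% and 7.79%, against 4.91%, 13.9%, 10.9% and 12.4% with 3 mice. The counteracted share was 7.45% at 20 points and 3.01% at 30 points. With members taken by nearest start site (343 CpGs) they were 20, 46, 39 and 37. At a limit of 20 points there were 47 counteracted CpGs and 119 for aged ENR against young STD, and at 30 points 19 counteracted. Medians gave 40 counteracted CpGs, 22 of them lower in aged STD mice, and averaging strands gave 30. Leaving out single mice moved the 4 counts over 21 to 35, 76 to 88, 47 to 75 and 63 to 84, and the limma count stayed at 0.

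The mice are different animals and the replicate numbers do not pair them (mean correlation of same-numbered mice -0.00387). With a replicate block, limma called 1 CpG for aged ENR against young STD, chr4:151160142 in intron 7, where all 12 mice had 0 or 100% and the block left 3 residual degrees of freedom. With the block the locus score stayed at -1.10 (exact sign flips, p = 0.125). It was -2.29 as a plain mean percentage, -0.68 with at least 5 mice per group and -1.13 with strands averaged, and -1.59 to -0.74 without single mice. The promoter difference ranged from -47.4 to -46.6 and the body against intronic difference from -9.87 to -9.37 without single mice. Over CpGs more than 1 kb from any start site the latter was -1.08 and no longer passed the test. In Camta1 introns outside other genes, under the same start-site limit, it was -4.4 and passed (sign-flip permutation p = 1e-05). The aging difference at chr4:151129779 reversed to -4.69 without aged STD 2 and was 45.3 without aged STD 4 or aged STD 6. The ENR difference there was 0 without aged STD 2. At chr4:151259137 the ENR difference was -21.9 without aged STD 2 or 4. It was -22.4 without aged ENR 3 or 4 and -24.7 without aged ENR 7. At chr4:151486067 the aging difference was 24.6 without young STD 1. These values fell under the 25-point limit. A coverage minimum other than the authors' 10 reads was not run because read numbers are not in the table. The unknown depth and the 3 to 8 mice behind each mean limit single CpGs.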

Other observations

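Gm23405, an snRNA gene in the distal stretch, averaged 0% for young STD, 2.09% for aged STD and 9.10% for aged ENR mice over 6 CpGs. Uts2, which encodes the peptide urotensin 2, averaged 27.4%, 42.8% and 12.7% over 2 CpGs, and Gm13090, in intron 11, averaged 40.9%, 31.1% and 26.4% over 7. In exon 13 the means were 51.1%, 55.0% and 60.2% over 13 CpGs, and in exon 16 they were 77.5%, 52.1% and 62.2% over 5. None of these differences was tested.

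The gap between the CpG before the window (chr4:150914692, 4.17%, 4.71% and 12.4%) and the first inside it (chr4:150924167, 74.5%, 73.0% and 55.6%) puts a low CpG just outside the lower edge. The first CpG beyond the upper edge, chr4:151863901, had 100%, 61.2% and 100%, past 25 points in both directions, and is not counted at the locus. Over the locus 50.8% of the 9516 single values were 0 and 30.3% were 100%, while 53.6% of the values at all CpGs were 0.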
